A study of Mus musculus with 5 samples.

Results

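The genes described here are 41 genes of DNA replication and of the synthesis of its building blocks, followed in B16F10 cells, a pigmented mouse melanoma line. They were taken by symbol from a deposited table of 54699 genes, and all 41 were in it once each. The RNA came from 5 lentivirus-infected cultures, with 1 library per group, so that no difference between groups has a replicate check. At day 8, RNA was taken from cells made to express mouse Myod1, a muscle transcription factor, from cells made to express Pparg, a fat cell nuclear receptor, and from cells carrying the empty expression vector, so that both treatments share 1 control. Cells with a short hairpin RNA against Setdb1, a histone methyltransferase, were collected at day 7 with cells carrying the empty knockdown vector. The labels call both controls wild type and describe all 3 treated cultures as differentiated. Neither the promoters of the vectors nor a selection of infected cells is stated in the sources used here.

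Replication begins at origins that are marked by the origin recognition complex and loaded, with the help of Cdc6 and Cdt1, with the Mcm2-7 ring, the core of the replicative helicase. Cdc45 and the GINS complex turn the ring into an active helicase, the polymerase alpha-primase complex lays down primers, and polymerases delta and epsilon extend them on the sliding clamp Pcna, which is loaded by replication factor C. Ribonucleotide reductase, thymidylate synthase and thymidine kinase supply deoxynucleotides, while chromatin assembly factor 1, Uhrf1 and Dnmt1 rebuild chromatin and DNA methylation behind the fork. Many of these genes are transcribed mainly in cells that enter S phase, under control of E2F transcription factors and the retinoblastoma family of pocket proteins.

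The E2F recognition sequence is therefore shown for members that carry it before their transcription start. RefSeq promoter windows (build GRCm38.p6, 250 bases before to 50 after a start) were matched by symbol for 34 of the 41 members. A window was searched on both strands for 4 sequences, TTTCCCGC, TTTGGCGC, TTTCGCGC and TTTGCCGC, and matches could overlap. At least 1 match was found for 14 of the 34 members, or 41.2%, and for 704 of the 27025 gene symbols with a window, or 2.60%. In 10 members a match lay wholly before a RefSeq start. For 7 of them (Uhrf1, Cdc6, Orc1, Mcm7, Gins3, Rfc3 and Dnmt1) the stretch shares bases with the gene as deposited, whose start lies farther upstream, and it is not printed. For the other 3 it lies before both starts, and it is printed 5' to 3' on the gene's strand with the matches in capitals.
Mcm5, chr8:75109322-75109401, plus strand: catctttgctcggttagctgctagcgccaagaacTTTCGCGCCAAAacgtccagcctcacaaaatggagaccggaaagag
Mcm6, chr1:128359711-128359849, minus strand: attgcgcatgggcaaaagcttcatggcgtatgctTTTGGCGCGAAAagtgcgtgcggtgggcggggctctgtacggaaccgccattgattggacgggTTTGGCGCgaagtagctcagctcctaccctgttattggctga
Pola1, chrX:93632252-93632327, minus strand: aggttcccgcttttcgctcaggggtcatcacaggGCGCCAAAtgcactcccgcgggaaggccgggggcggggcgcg
The first match began 153 bases before the RefSeq start in Mcm5, 110 in Mcm6 and 138 in Pola1. Mcm5 held 2 overlapping matches and Mcm6 held 3. The CCAAT sequence, a common promoter element of cell-cycle genes, was in the windows of 22 of the 34 members (64.7%) and of 41.1% of all symbols. TTTGAA or TTCGAA, the core of the cell-cycle homology region, was in 7 of 34 (20.6%) and in 21.7% of all symbols. These matches describe letters in a window, not binding.

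The libraries held between 16214802 and 18300670 reads assigned to genes, recovered from the deposited FPKM (fragments per kilobase of gene length and per fixed number of reads, scaled between libraries by the authors). A member rested on 34 to 15867 reads. The targeted genes followed the labels: Myod1 and Pparg had 7610 and 2514 reads in their own libraries and 0 in the other 4, and Setdb1 stood at 8.83% of its control in the knockdown. All 8 melanocyte markers reached an FPKM of 1 in every library. Their summed FPKM went from 7816 in the empty expression vector control to 3306 with Myod1 expression and 2308 with Pparg expression (5 and 6 of 8 at least 2-fold lower). With Setdb1 knockdown the sum was 9098, against 8542 in its control, and 2 of the 8 were at least 2-fold lower. The 6 immune markers (Ptprc among them) summed to at most 0.478 and the 6 fibroblast markers to at most 2.52. The 6 skeletal muscle markers summed to 21633 in the Myod1 library and to at most 1.91 elsewhere. The 6 adipocyte markers summed to 317 in the Pparg library and to at most 2.71 elsewhere. In the Pparg library 4 of the 6 reached an FPKM of 1. The part of these shifts in cell identity in the results below was not tested.

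Replication genes were lowest in the Setdb1 knockdown library and next lowest in the Myod1 library. In the Pparg library they were nearer control levels, with 28 of the 41 below their control, against 52.0% of all genes. The Setdb1 knockdown library had the lowest FPKM of the 5 for 38 of the 41 members, against 27.0% of all 12842 genes compared. The Myod1 library was the lowest for the other 3 (Fen1, Gins4 and Rfc3) and for 21.3% of all genes. Both libraries lay below all 3 others for 40 members, every one except Ung, and for 19.6% of all genes. Summed over the 41 genes, reads made up 0.194% of the Setdb1 knockdown library and 0.283% of the Myod1 library. They made up 0.676% of the Pparg library, 0.741% of the empty expression vector control and 0.802% of the empty knockdown vector control. In RNA from whole cultures, fewer cells in S phase and less of these RNAs per cell cannot be told apart.

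**Figure D1:**
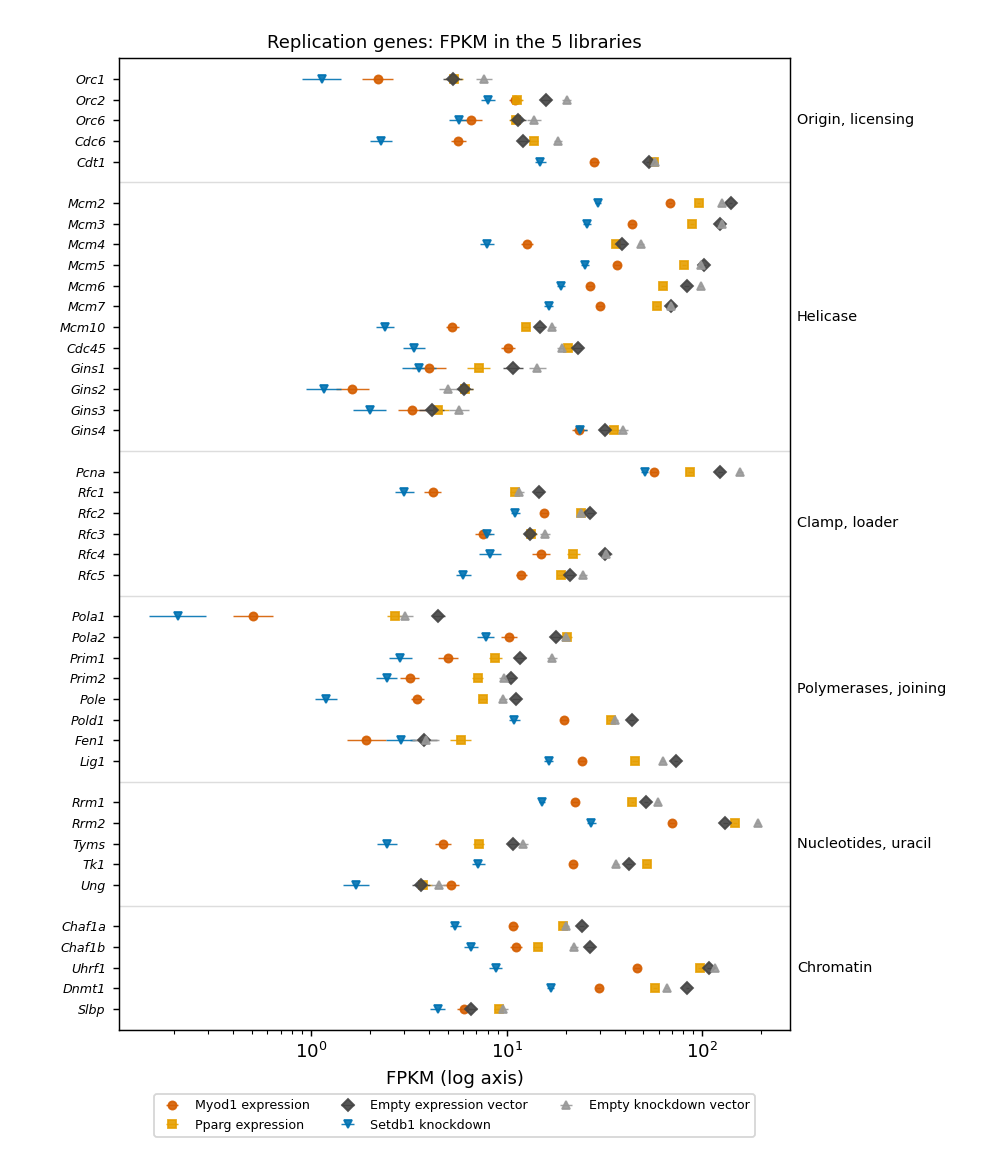
FPKM (log axis) of the 41 replication genes, grouped by complex, in the 5 libraries. Bars are 95% Wilson intervals and cover counting error only. The Setdb1 knockdown symbols lie farthest left for 38 genes, and the Myod1 symbols lie between them and the other 3 libraries for most genes.

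A gene was called changed at a log2 ratio of FPKM + 1 of at least 1 in size, named 2-fold here. For genes of low FPKM the added 1 makes this ratio smaller than that of plain FPKM. Calls were made among the 12842 genes that reached an FPKM of 1 in any library. All 41 members passed that filter. With Setdb1 knockdown, 37 of the 41 were at least 2-fold lower than in the empty knockdown vector control and 0 were higher, against 10.3% of all genes lower and 9.34% higher. Their median log2 ratio was -1.86, against 0.00 for all genes, and the median member kept 25.4% of its control FPKM. With Myod1 expression, 25 were at least 2-fold lower than in the empty expression vector control and 0 were higher, against 7.55% of all genes lower and 14.0% higher. The median log2 ratio was -1.09, against 0.02 for all genes, and the median member kept 44.2% of its control. With a pseudocount of 0.1 or none, 38 members were lower with Setdb1 knockdown, against 16.3% of all genes. With Myod1 expression 27 were, against 13.2%. With Pparg expression 0 members changed 2-fold, against 2.3% of all genes lower, 4.22% higher and 6.52% either way, and the median was -0.23. Between the controls 0 members differed 2-fold, against 1.44% of all genes lower, 1.23% higher and 2.67% either way, and the median was 0.11.

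Each treated library was also set against the other empty vector control, which differs from it in vector and day. With Setdb1 knockdown 33 members were at least 2-fold lower there, against 11.0% of all genes, and all 33 were lower against both controls, against 7.56% of all genes. With Myod1 expression 23 were lower, against 7.51% of all genes, and 20 against both controls, against 4.42%. With Pparg expression 0 were lower, against 2.41% of all genes, or 0.849% against both controls. The order of the treatments was thus the same with either control. At a limit of 4-fold on the same FPKM + 1 scale, and with the own control, 14 members were lower with Setdb1 knockdown, against 1.5% of all genes. With Myod1 expression 0 were, against 0.382%, and with Pparg expression 0, against 0.179%. The added 1 held back genes of low FPKM. Pola1 kept 11.3% of its control FPKM with Myod1 expression and Tyms 20.2% with Setdb1 knockdown, and neither passed.

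The 25 genes lower with Myod1 expression were all lower with Setdb1 knockdown as well, in comparisons that share no library. Such a fall in both was seen for 2.9% of all genes. Another 12 members passed the limit with Setdb1 knockdown and not with Myod1 expression, against 7.42% of all genes. Fen1, Gins4, Rfc3 and Slbp passed it in neither, as did 85.0% of all genes. The share of control FPKM that remained was smaller with Setdb1 knockdown than with Myod1 expression for 40 members, the exception being Fen1. Each share was taken against its own control, and the same count was not made over all genes. For some of the 40, such as Rfc1 and Gins2, the counting intervals overlapped. Whether the treatments differ cannot be tested with 1 library each. The limit itself separated near neighbours. With Myod1 expression Rfc4 (-1.03) and Mcm2 (-1.01) were just inside it, and Orc1 and Cdc6 (-0.98 each) just outside. With Setdb1 knockdown Rfc2 (-1.05) and Ung (-1.03) were inside, and Slbp (-0.95) and Rfc3 (-0.90) outside.

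**Figure D2:**
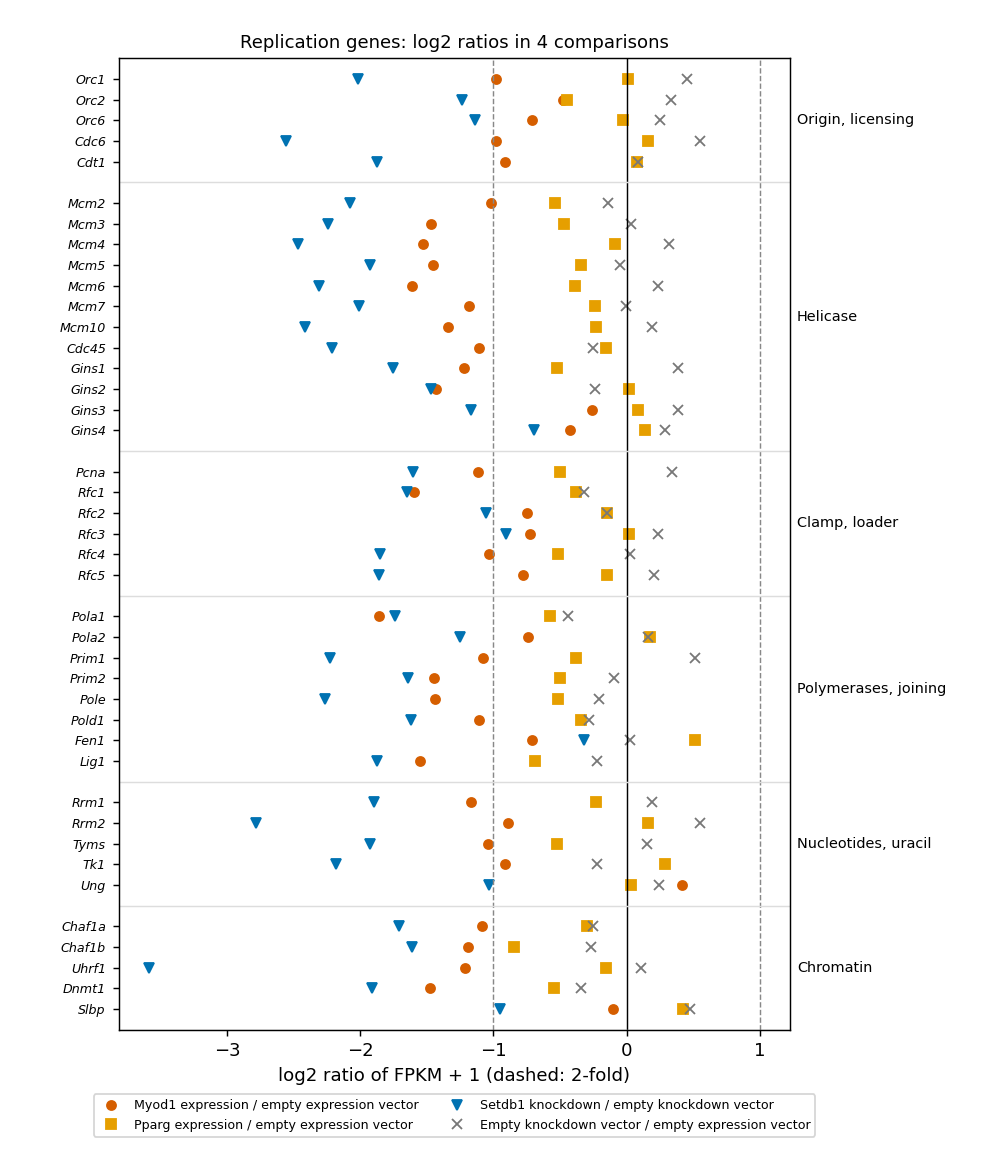
Log2 ratio of FPKM + 1 for each of the 41 genes in the 3 treatment comparisons and between the 2 controls, with the 2-fold limit dashed. The Setdb1 knockdown points reach -3.58 (Uhrf1), the Myod1 points centre on -1.09, and the Pparg and control points stay between the dashed lines.

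Origin recognition and licensing factors were all at least 2-fold lower with Setdb1 knockdown (5 of 5, median -1.87), against 10.3% of all genes. With Myod1 expression 0 of 5 passed the limit (median -0.91), against 7.55% of all genes, though all 5 lay below their control. The latter count depended on the settings. It was 1 when centred on the median, and 2 with a pseudocount of 0.1, with none or with the other control. It was 3 with the 75th percentile or recovered reads, and 4 with the column sum. Over these settings 7.51% to 14.8% of all genes were lower. In plain FPKM Orc1 kept 41.3% of its control with Myod1 expression. Cdc6, the loader ATPase that brings the Mcm ring to origins (ENSMUSG00000017499, chromosome 11, 98907801 to 98923940), had an FPKM of 12.2 in the empty expression vector control, 5.67 with Myod1 expression and 13.7 with Pparg expression. It had 18.3 in the empty knockdown vector control and 2.28 with Setdb1 knockdown. Cdc6 therefore kept 12.5% of its control with Setdb1 knockdown (interval 10.8% to 14.4%, from counting error alone) and 46.6% with Myod1 expression (41.7% to 52.0%).

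Orc1, the origin subunit that comes and goes with the cell cycle, had 5.31 FPKM in the empty expression vector control, 2.19 with Myod1 expression, 5.37 with Pparg expression, 7.65 in the empty knockdown vector control and 1.13 with Setdb1 knockdown. Orc1 and Cdc6 thus had the same order of libraries, with the Pparg library at or above its control. Orc2 and Orc6, further subunits of the complex, kept 39.7% and 41.5% with Setdb1 knockdown, against 14.8% for Orc1. Cdt1, which delivers the Mcm ring, went from 57.0 to 14.9 FPKM with Setdb1 knockdown and from 53.6 to 28.1 with Myod1 expression. The 5 genes were all higher in the empty knockdown vector control than in the other control, by 0.09 to 0.55 on the log2 scale. Against that other control, Orc2 (-0.90) and Orc6 (-0.89) no longer passed the limit with Setdb1 knockdown.

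Of the 12 genes of the replicative helicase, 11 were at least 2-fold lower with Setdb1 knockdown (median -2.04) and 10 with Myod1 expression (median -1.28). Mcm2, the most abundant of the ring subunits per gene length (ENSMUSG00000002870, chromosome 6, 88883474 to 88898780), had an FPKM of 139.6 in the empty expression vector control, 68.6 with Myod1 expression and 95.8 with Pparg expression. It had 126 in the empty knockdown vector control and 29.3 with Setdb1 knockdown. Mcm4, the least abundant, had 38.7, 12.7 and 36.3 FPKM in the first 3 of these libraries, and 48.5 and 7.95 in the last ones.

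The order of the 6 ring subunits by FPKM was Mcm2, Mcm3, Mcm5, Mcm6, Mcm7, Mcm4 in 4 libraries, and in the Myod1 library Mcm7 and Mcm6 changed places (29.8 and 26.5). Neighbours in this order were close in some libraries: Mcm2 and Mcm3 stood at 126.5 and 125.6 in the empty knockdown vector control. The sum over the 6 was 555 FPKM in the empty expression vector control, 218 with Myod1 expression and 423 with Pparg expression. The sum was 566 in the empty knockdown vector control and 124 with Setdb1 knockdown. The 6 ring genes were thus all at least 2-fold lower in both comparisons, with their order kept apart from that exchange. Against the other empty vector control Mcm2 stood at -0.87 with Myod1 expression, short of the limit, and 8 of the 12 helicase genes passed it. The Mcm2 to Mcm4 ratio was 5.39 with Myod1 expression, against 2.61 to 3.68 in the other libraries, since Mcm2 kept 49.1% of its control and Mcm4 32.9%.

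With Pparg expression the 6 ring genes kept 68.6% (Mcm2) to 94.0% (Mcm4) of their control. Mcm10, a scaffold needed to start unwinding, and Cdc45 kept 14.0% and 17.5% with Setdb1 knockdown, and 35.5% and 44.2% with Myod1 expression. The 4 GINS subunits were less alike. Gins1 had FPKM of 10.7 and 14.4 in the expression and knockdown vector controls, 4.03 with Myod1 expression, 7.19 in the Pparg library and 3.56 after Setdb1 knockdown. Gins4 had 31.9 and 39.1 in the same controls, 23.5 with Myod1 expression, 35.2 in the Pparg library and 23.8 after Setdb1 knockdown. Gins4 was thus the most abundant GINS gene in every library and kept the most with Setdb1 knockdown (60.8%, interval 54.7% to 67.5%). Gins3 kept 34.9% with Setdb1 knockdown and 79.5% with Myod1 expression (63.3% to 99.6%).

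Of the clamp and clamp loader genes, 5 of 6 were at least 2-fold lower with Setdb1 knockdown (median -1.63) and 3 of 6 with Myod1 expression (median -0.91). With division by the column sum all 6 passed with Myod1 expression. Pcna, the sliding clamp (ENSMUSG00000027342, chromosome 2, 132249162 to 132253314), had an FPKM of 123 in the empty expression vector control, 56.5 with Myod1 expression and 86.8 with Pparg expression. It had 156 in the empty knockdown vector control and 50.7 with Setdb1 knockdown, the highest level of any member in that library. Pcna was thus low in the same 2 libraries as the Mcm genes, with 32.4% of its control left after Setdb1 knockdown.

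Rfc1, the large subunit of the clamp loader, had 14.7 FPKM in the empty expression vector control, 4.19 with Myod1 expression, 11.05 with Pparg expression, 11.6 in the empty knockdown vector control and 3.01 with Setdb1 knockdown. It kept 28.6% with Myod1 expression and 26.0% with Setdb1 knockdown, with overlapping intervals (25.5% to 31.9% and 22.9% to 29.3%). The small subunits kept more with Myod1 expression, between 47.3% (Rfc4) and 57.9% (Rfc2). With Setdb1 knockdown they split into Rfc4 (25.5%) and Rfc5 (24.6%), and Rfc2 (46.1%) and Rfc3 (50.5%). Rfc3 had FPKM of 7.59 with Myod1 expression and 7.93 with Setdb1 knockdown.

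Among polymerases, primase and the enzymes that join Okazaki fragments, 7 of 8 genes were at least 2-fold lower with Setdb1 knockdown (median -1.69) and 6 of 8 with Myod1 expression (median -1.27). Pola1, the catalytic subunit of polymerase alpha (ENSMUSG00000006678, chromosome X, 93304767 to 93632155), had 4.47 FPKM in the empty expression vector control, 0.505 with Myod1 expression, 2.68 with Pparg expression, 3.03 in the empty knockdown vector control and 0.208 with Setdb1 knockdown. The 2 lowest values rest on 70 and 34 reads. In linear terms Pola1 had the deepest fall of all members in both comparisons, to 11.3% (8.71% to 14.5%) and 6.87% (4.70% to 9.75%) of its control. The added 1 understates it as log2 ratios of -1.86 and -1.74.

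Pola2, the accessory subunit of the same enzyme, stood at 17.8, 10.3 and 20.2 FPKM in the expression vector, Myod1 and Pparg libraries, and at 19.99 and 7.81 in the knockdown vector and Setdb1 knockdown libraries. Pola2 thus kept more than its partner, 57.7% with Myod1 expression and 39.1% with Setdb1 knockdown. The primase subunits Prim1 and Prim2 kept 16.7% and 25.0% with Setdb1 knockdown and 42.9% and 30.6% with Myod1 expression, so that their order differed between the comparisons. Pole, the catalytic subunit of the leading strand polymerase, fell from 9.54 to 1.196 FPKM with Setdb1 knockdown and from 11.2 to 3.50 with Myod1 expression. Pold1, its counterpart on the lagging strand, fell from 35.6 to 10.9 and from 43.5 to 19.6. Lig1, the ligase that seals Okazaki fragments, fell from 62.9 to 16.4 with Setdb1 knockdown and from 73.4 to 24.3 with Myod1 expression. With Pparg expression Lig1 stood at 45.2 FPKM, 61.7% of its control, the third smallest share in that comparison after Chaf1b (54.1%) and Pola1 (59.9%).

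Fen1, the flap endonuclease of Okazaki fragment processing, departed from the rest. Its FPKM was 3.77 in the empty expression vector control, 1.92 with Myod1 expression, 5.82 with Pparg expression, 3.85 in the empty knockdown vector control and 2.88 with Setdb1 knockdown. It was the highest in the Pparg library (154% of control, 126% to 190%) and kept 74.7% with Setdb1 knockdown. These values rest on 73 to 270 reads. In GENCODE M21, 2039 of the 2422 exonic bases of Fen1 (84.2%) lie in exons of other genes, 1909 of them in the antisense gene Gm10143, whose FPKM was 0 to 0.0735. How reads in shared exons were counted is not given in the sources used here, and the part of the overlap in this value was not tested. In all, exons of 15 members overlap another gene, and the share exceeds 20% for 3 further members: Gins2 (67.3%), Chaf1a (52.5%) and Orc2 (29.8%). Without these 4 genes 34 of 37 members were at least 2-fold lower with Setdb1 knockdown and 23 of 37 with Myod1 expression. The largest partners of the 3 further members differed between the knockdown vector control and Setdb1 knockdown. Gse1, over Gins2, went from 2.16 to 4.71 FPKM, Ubxn6, over Chaf1a, from 3.84 to 13.4, and Nif3l1, over Orc2, from 11.1 to 8.37. Their part in the values of these members was not tested.

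Nucleotide supply genes and the uracil glycosylase Ung were all at least 2-fold lower with Setdb1 knockdown (5 of 5, median -1.93), and 2 of 5 with Myod1 expression (median -0.92). The latter count was 4 of 5 with each of 3 other settings (column sum, 75th percentile and recovered reads). Rrm2, the regulated small subunit of ribonucleotide reductase (ENSMUSG00000020649, chromosome 12, 24708241 to 24714146), had an FPKM of 131 in the empty expression vector control, 70.1 with Myod1 expression and 147 with Pparg expression. It had 192 in the empty knockdown vector control and 27.1 with Setdb1 knockdown, a log2 ratio of -2.78. It kept 14.1% of its control (13.3% to 14.9%), close to Mcm10 (14.0%). The controls differed in Rrm2 by 0.55, and against the other control its log2 ratio was -2.23. Rrm1, the large subunit, had 51.6, 22.4 and 43.9 FPKM in the expression vector, Myod1 and Pparg libraries, and 59.2 and 15.2 in the knockdown vector and Setdb1 knockdown libraries. The subunits thus fell unequally: the Rrm2 to Rrm1 ratio was 1.78 (1.67 to 1.90) with Setdb1 knockdown and 2.54 to 3.35 in the other 4 libraries.

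Tk1, the cytosolic thymidine kinase, had 42.3 FPKM in the empty expression vector control, 21.9 with Myod1 expression, 51.9 with Pparg expression, 36.1 in the empty knockdown vector control and 7.17 with Setdb1 knockdown. Tk2, its mitochondrial counterpart and no member, had 4.54, 5.61, 5.67, 3.53 and 9.85 in the same order, so that Tk2 was highest where Tk1 was lowest. The Tk1 to Tk2 ratio was 0.728 (0.653 to 0.812) with Setdb1 knockdown, 3.91 with Myod1 expression and 9.15 to 10.2 in the other 3 libraries. Tyms, thymidylate synthase, kept 20.2% with Setdb1 knockdown, 43.8% with Myod1 expression and 66.7% with Pparg expression. Ung, which removes uracil from DNA, had 3.66 FPKM in the empty expression vector control, 5.21 with Myod1 expression, 3.76 with Pparg expression, 4.52 in the empty knockdown vector control and 1.70 with Setdb1 knockdown. Ung was the one member whose FPKM in the Myod1 library exceeded its control (142%, 123% to 165%), by less than 2-fold.

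Of the chromatin assembly and maintenance genes, 4 of 5 were at least 2-fold lower with Setdb1 knockdown (median -1.71) and 4 of 5 with Myod1 expression (median -1.19). Against the other empty vector control the latter count was 2 of 5. Uhrf1, which reads hemimethylated DNA and recruits Dnmt1 (ENSMUSG00000001228, chromosome 17, 56303321 to 56323486), had an FPKM of 108 in the empty expression vector control, 46.1 with Myod1 expression and 96.8 with Pparg expression. It had 116 in the empty knockdown vector control and 8.79 with Setdb1 knockdown. Uhrf1 thus kept 7.55% of its control with Setdb1 knockdown (6.98% to 8.16%) and had a log2 ratio of -3.58, the lowest of the 41 genes with the pseudocount of 1. By share of control FPKM only Pola1 was lower. Dnmt1, the maintenance methyltransferase, had 83.8, 29.5 and 57.2 FPKM in the expression vector, Myod1 and Pparg libraries, and 66.0 and 16.8 in the knockdown vector and Setdb1 knockdown libraries. The Uhrf1 to Dnmt1 ratio was 0.524 (0.480 to 0.570) with Setdb1 knockdown and 1.29 to 1.76 in the other 4 libraries.

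Chaf1a and Chaf1b, subunits of chromatin assembly factor 1, kept 27.2% and 29.8% with Setdb1 knockdown and 44.9% and 41.8% with Myod1 expression. Chaf1b had the lowest log2 ratio of the Pparg comparison (-0.84, from 26.7 to 14.4 FPKM), which did not pass the limit. Slbp, which binds the stem-loop of histone mRNAs, stood at 6.56 FPKM in the empty expression vector control, 6.05 with Myod1 expression, 9.14 with Pparg expression, 9.54 in the empty knockdown vector control and 4.46 with Setdb1 knockdown. Its controls differed by 0.48 on the log2 scale, as much as it differed from the other control with Setdb1 knockdown (-0.47).

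**Figure D3:**
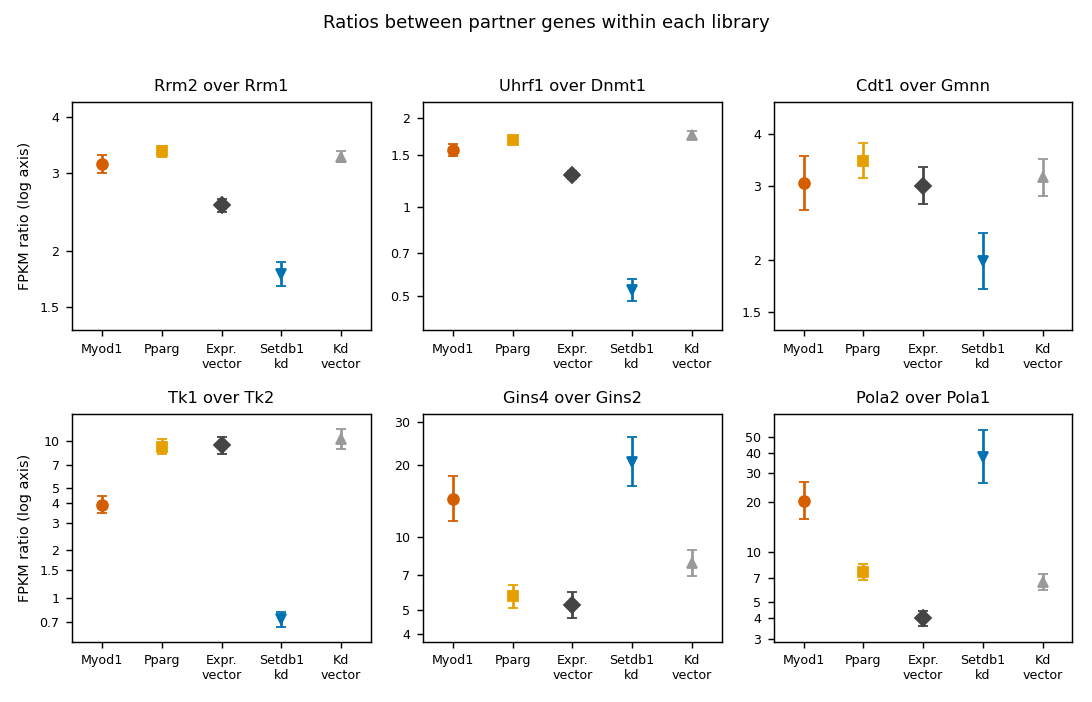
Ratio of FPKM between partner genes in each of the 5 libraries (log axes), with 95% exact binomial intervals that cover counting error only. The Setdb1 knockdown library is the lowest for Rrm2 over Rrm1 (1.78), Uhrf1 over Dnmt1 (0.524), Cdt1 over Gmnn (1.98) and Tk1 over Tk2 (0.728), and the highest for Gins4 over Gins2 (20.5) and Pola2 over Pola1 (37.5).

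The partner genes in that plot were chosen after their values were seen. Cdt1 over Gmnn sets the licensing factor against its inhibitor geminin, and was 1.98 (1.70 to 2.32) with Setdb1 knockdown and 3.01 to 3.46 in the other libraries. The Gins4 to Gins2 ratio was 14.4 with Myod1 expression and 20.5 with Setdb1 knockdown, against 5.24 to 7.84 in the other libraries. The part of the overlap of Gins2 with another gene in this ratio was not tested.

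The other genes of the pathway were counted in 6 lists of 123 genes. Over all genes compared, 10.3% were at least 2-fold lower and 9.34% higher with Setdb1 knockdown, 7.55% and 14.0% with Myod1 expression, and 2.3% and 4.22% with Pparg expression. Of the 13 further origin and firing factors, 10 were at least 2-fold lower with Setdb1 knockdown and 6 with Myod1 expression, and 0 were higher. Ticrr and Topbp1, which help load Cdc45, fell to log2 ratios of -2.07 and -1.99 with Setdb1 knockdown. Mtbp, the partner of Ticrr, had the lowest ratio with Myod1 expression (-1.89) and with Pparg expression (-1.08), where it was the 1 gene of this list past the limit. Against the other control Mtbp stood at -0.66 with Pparg expression. Orc4 and Orc5, stable subunits of the origin complex, stood at -0.46 and -0.26 with Setdb1 knockdown.

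Of the 22 remaining fork genes, 10 were lower (45.5%) and 1 higher (4.55%, under the 9.34% of all genes) with Setdb1 knockdown. With Myod1 expression 5 were lower (22.7%) and 0 higher. Over the alternative settings the latter 5 became up to 10, while the share of all genes lower ranged from 7.51% to 14.8%. Top2a, the topoisomerase that untangles finished chromosomes, had the largest fall in both, from 42.1 to 3.20 FPKM (-3.36) and from 62.6 to 9.81 (-2.56). Clspn, the fork checkpoint mediator, came next with -2.26 and -1.37. Pold4, a small accessory subunit of polymerase delta, was the 1 gene higher. It had 11.8 FPKM in the empty expression vector control, 21.0 with Myod1 expression, 43.1 with Pparg expression, 8.41 in the empty knockdown vector control and 19.7 with Setdb1 knockdown. Its log2 ratios were 0.78, 1.78 and 1.14 in these 3 comparisons, and against the other control they were 1.23, 2.23 and 0.69, so that the call with Setdb1 knockdown was lost and one with Myod1 expression gained.

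With Setdb1 knockdown 15 of 31 further genes of nucleotide metabolism were lower (48.4%) and 1 higher (3.23%), and with Myod1 expression 2 were lower (2 to 8 over the alternative settings) and 1 higher. The 2 are 6.45% of the list, near the 7.55% of all genes lower with Myod1 expression. Mthfd1, the cytosolic folate enzyme that feeds purine and thymidylate synthesis, fell from 48.1 to 5.83 FPKM with Setdb1 knockdown (-2.85), followed by deoxycytidine kinase Dck (-2.07). Tk2 was the 1 gene at least 2-fold higher (1.26), and stood at 0.97 against the other control. With Myod1 expression Mthfd2 (-1.42) and Shmt2 (-1.23), mitochondrial enzymes of the folate pathway, were lower, and Impdh1, an enzyme of guanine nucleotide synthesis, was higher (11.97 to 42.0 FPKM, 1.73). With Myod1 expression 0 of the 31 were lower against both controls, and Shmt2 stood at -0.83 against the other one. Mthfd2 was also lower with Pparg expression (-1.28), but it differed between the controls (99.4 and 52.4 FPKM), and against the other control stood at -0.50 and -0.37. With the other control 9 of the 31 genes passed the limit with Setdb1 knockdown, in place of 15.

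Of 12 further histone chaperones and chromatin replication genes, 6 were lower with Setdb1 knockdown and 4 with Myod1 expression, led by the chromatin remodeller Hells (-2.39 and -1.84). The list of E2F factors, pocket proteins and cyclin regulators had 24 genes compared. With Setdb1 knockdown 11 were lower (45.8%) and 1 higher (4.17%, under the 9.34% of all genes). With Myod1 expression 5 were lower (20.8%, and 5 to 8 genes over the alternative settings) and 3 higher. With Pparg expression 1 was lower and 1 higher (4.17% each), and 2 were lower against the other control. Ccna2, cyclin A2, and Fbxo5, an inhibitor of the anaphase-promoting complex, had the lowest ratios with Setdb1 knockdown (-2.90 and -2.47). The E2F factor E2f1 went from 33.5 to 7.11 FPKM there (-2.09) and from 40.1 to 22.7 with Myod1 expression (-0.79). Fbxo5 (-1.57) and the pocket protein Rbl1 (-1.55) had the lowest ratios with Myod1 expression.

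The 3 genes of that list higher with Myod1 expression were Cdkn1a, Rb1 and E2f2. They are 12.5% of the list, near the 14.0% of all genes higher in that comparison. Cdkn1a, the inhibitor p21 of cyclin-dependent kinases, had 119 FPKM in each control and 425 in the Myod1 library, 179 in the Pparg library and 262 in the Setdb1 knockdown library. Its log2 ratios were 1.83, 0.58 and 1.13. Rb1, the retinoblastoma protein, had 2.37 FPKM in the empty expression vector control, 8.19 with Myod1 expression and 8.20 with Pparg expression, and 2.75 and 1.60 in the knockdown vector and Setdb1 knockdown libraries. Rb1 was thus high in the Myod1 and Pparg libraries alike. The 1 gene lower with Pparg expression was Cdk2, the kinase partner of cyclins E and A, which went from 68.6 to 28.6 FPKM (-1.23, and -1.34 against the other control). E2f2 rose with Myod1 expression from 7.07 to 19.3 FPKM (1.33).

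The last list holds repair and mitochondrial DNA polymerases, ligases and base excision repair genes such as Xrcc1, Apex1 and Smug1. Of its 20 genes, 1 was lower with Setdb1 knockdown and 1 with Myod1 expression, in each case Polq, and 0 were higher, or 5.00% against the 10.3% and 7.55% of all genes. Their medians were -0.27 and -0.31. These shares turned round with a pseudocount of 0.1, where 5 of 20 (25.0%) were lower with Myod1 expression, against 13.2% of all genes, and 4 of 20 (20%) with Setdb1 knockdown, against 16.3%. With no pseudocount 5 of 20 were lower in each, against 13.2% and 16.3% of all genes. Polb, the base excision repair polymerase, stood at 3.87 FPKM in the empty expression vector control and 8.70 with Myod1 expression (0.99).

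**Figure D4:**
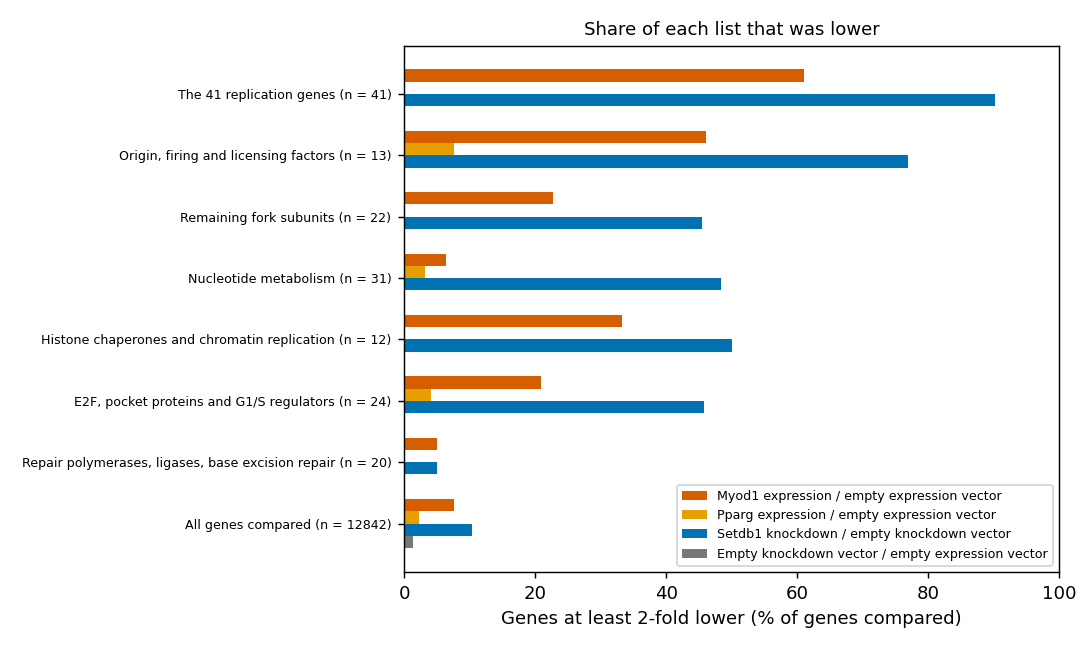
Share of genes at least 2-fold lower (percent of genes compared) for the 41 replication genes, 6 lists of related genes and all 12842 genes, in 4 comparisons; missing bars are 0%. The 41 genes reach 90.2% with Setdb1 knockdown and 61.0% with Myod1 expression, and the repair list 5.00% in both, below all genes with the pseudocount of 1 plotted here and above them with 0.1 or none.

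Members with and without the E2F sequence were set side by side, as a description. The 14 genes with a match had a median log2 ratio of -1.92 with Setdb1 knockdown (range -3.58 to -0.90), and the 20 genes with a window but no match -1.78 (-2.78 to -0.32). With Myod1 expression the medians were -1.20 and -1.02. Pola1 and Uhrf1, with the smallest shares of control FPKM after Setdb1 knockdown (6.87% and 7.55%), carry a match, and so do Gins3 and Rfc3, which kept 34.9% and 50.5%.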

How the data were processed

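RNA sequencing was measured in 5 libraries, 1 per group, grouped by the labels. Per the labels' protocols, TRIzol was used to isolate total RNA and an NEBNext Ultra kit to build libraries. Per the submitters' processing notes CASAVA, HISAT2 and featureCounts 1.5.0-p3 were used with build GRCm38; strand setting, handling of shared reads and poly(A) selection are not given in the sources used here. The authors deposited FPKM values. Multiplied by gene length, 100% of the values above 0 were whole multiples (within 0.01 reads) of 1 step per library, which gave reads per gene. The authors' dividing total was 0.859 to 1.10 times the recovered reads, so the deposited FPKM were already scaled between libraries. Positions are those of the deposited table, and 40 of 41 members had the same position in GENCODE M21.

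Log2 ratios are log2(FPKM + 1) differences. No test between groups was possible. Intervals at 95% are Wilson (levels) or exact binomial (ratios), and reads without molecular identifiers are not independent molecules. Ratio code was checked on simulated data. Members and lists were chosen with earlier results of these data known. Every member is described; of other lists, counts and the 2 highest and 2 lowest ratios per comparison were drawn on, and E2f1, E2f2, Gmnn and the partner ratios were chosen after their values were seen. Alternatives changed the pseudocount (0.1 or none), the filter, the scaling, the control and the fold limit. Python 3.11.15, numpy 2.4.6, pandas 2.3.3, scipy 1.17.1 and matplotlib 3.10.9 were used.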

Additional observations from a re-analysis of the deposited data

How the results depend on the processing

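No paired analysis was possible because each group has 1 library. In the Myod1 comparison other settings moved the median of all genes from 0.02 to -0.26 with division by the column sum, -0.11 with the 75th percentile and -0.11 with recovered reads. That last setting changes the depth scaling and also the unit of the added 1, which is not per gene length, and their parts were not told apart. The median of the 41 members moved with them, from -1.09 to -1.45, -1.26 and -1.33, and the members at least 2-fold lower were 35, 30 and 30 in place of 25. Over all genes the split of 1798 higher and 970 lower became 1238 and 1907, 1489 and 1334, and 1575 and 1835. In the Pparg comparison recovered reads moved the members' median from -0.23 to -0.0707 and the split of all genes from 542 higher and 295 lower to 922 and 219. With a 4-fold limit on FPKM + 1, 0 members were lower with Myod1 expression, against 0.382% of all genes. With Setdb1 knockdown 14 were, against 1.5%. Against the other control 23 members were at least 2-fold lower with Myod1 expression and 33 with Setdb1 knockdown, 20 and 33 of them also against the own control. The origin group ranged from 0 to 4 of 5 genes lower with Myod1 expression over the settings. The counts over all 41 members stayed within 1.5 times under every alternative other than the 4-fold limit. Counts over all genes did not: with a pseudocount of 0.1 the genes lower rose from 970 to 1694 with Myod1 expression, from 295 to 598 with Pparg expression and from 1326 to 2096 with Setdb1 knockdown, and without one to 1690, 528 and 2087. Between the controls 185 became 533 and 530. With Myod1 expression the remaining fork genes lower went from 5 to 9 with either of these settings, and nucleotide metabolism from 2 to 3 and 4. Filters change no single gene's ratio. Of 175 values per comparison, for 25 genes recomputed one by one, 3 with Myod1 expression lost a 2-fold call and 20 gained one, and 4 and 5 did with Setdb1 knockdown. With Pparg expression 161 of the 175 kept their sign. Counting error limits Pola1, Orc1, Fen1, Gins2 and Gins1 most, each under 100 reads in at least 1 library.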
